A study of Mus musculus with 3 samples.

Results

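Cytosolic ribosomal protein genes were taken from single-cell RNA sequencing of mouse dorsal skin as the symbols that start with Rpl or Rps followed by a digit, together with *Rpsa*, *Rplp0*, *Rplp1* and *Rplp2*. The ribosomal S6 kinases, whose symbols start with Rps6k, and the 150 symbols that hold -ps, which name processed copies, were left out. The rule gave 90 genes of 19927 symbols. They comprised 31 proteins of the small subunit, 43 of the large subunit, 3 of the stalk and 13 paralogues, retrogenes or partners of these. Of the 90 genes, 84 reached 50 CPM (counts scaled to a common library total) in at least 1 library, and 82 of these reached it in every library.

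The cells came from the epidermis and hair follicles of male mice at P18. Both control libraries were *Vdr* flox/flox, with floxed alleles and no Cre, and the remaining library was labelled *Vdr* flox/flox; *Krt14*cre, or *Vdr* cKO. In that genotype the *Krt14* promoter drives Cre in basal keratinocytes of the epidermis and outer root sheath. The paper describes the resulting deficiency of *Vdr* as epithelial. Skin of 3 mice was combined in each library, and there was 1 library of the *Vdr* cKO label, so its differences from the controls have no replicate and no p-value was computed.

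The cytosolic ribosome is built from a small subunit, which reads the message, and a large subunit, which joins amino acids. Their proteins are made in nearly equal numbers, and many of their transcripts begin with a C followed by a run of pyrimidines, the 5′ terminal oligopyrimidine (TOP) motif, through which mTOR signalling sets their translation. In the epidermis, basal keratinocytes marked by *Krt14* divide, spinous cells carry *Krt10*, and granular cells carry *Lor* (loricrin), a protein of the cornified envelope, before they lose their nuclei and organelles.

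The transcript starts of members at both ends of the results are given here because the TOP motif is the sequence feature best known for this family. Each window holds 10 bases before and 20 bases from the RefSeq start (GRCm38.p6), which lie in the 5′ UTR of the first exon, and capitals mark a pyrimidine run that starts with C at that position. *Rps10* and *Rps21* were among the members with the highest ratios to the controls. *Rps27* and its retrogene *Rps27rt* share the bases that follow the run, and *Rplp2* is a stalk protein. *Rpl15* has the longest run of these, while its ratio to the control mean was among the 5 lowest (log2 -0.11).
Rps10: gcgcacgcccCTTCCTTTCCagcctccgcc
Rps21: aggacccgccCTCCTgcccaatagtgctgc
Rps27: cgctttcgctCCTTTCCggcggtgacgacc
Rps27rt: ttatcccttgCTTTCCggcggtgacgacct
Rplp2: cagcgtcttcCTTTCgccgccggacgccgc
Rpl15: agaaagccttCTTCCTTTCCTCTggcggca
These windows lie at chr17:27635225-27635254 (minus strand), chr2:180257369-180257398 (plus), chr3:90213629-90213658 (minus), chr9:114982720-114982749 (minus), chr7:141447641-141447670 (plus) and chr14:18270967-18270996 (minus).

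No such run was found for *Rpl37a* or *Rpl37rt*, which were also among the 5 highest ratios and whose windows are not shown. There was also none at the annotated start of the stalk protein gene *Rplp0* or of the 3 members at 50 CPM that lay below both controls.
Rplp0: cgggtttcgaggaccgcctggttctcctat
Rps2: gtcgagatctcgcgcttcttggagcactat
Rpl9: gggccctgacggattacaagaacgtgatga
Rpl36al: ccgtcgctcaggttcagttccgacttccgc
They lie at chr5:115559457-115559486 (plus), chr17:24720053-24720082 (plus), chr5:65391412-65391441 (minus) and chr12:69184048-69184077 (minus). Of the 66 members with a RefSeq promoter in the table, 15 (22.7%) had a C followed by at least 4 pyrimidines at a listed start, against 3.01% of all 27025 genes in it. The motif CCGGAAG, searched on both strands from 250 bases before to 50 after the start after the windows had been seen, was found for 25 members (37.9%) and for 9.93% of all genes. An annotated start can lie a few bases from the used one, so a missing run says only that these letters are not at this position.

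Barcodes were kept as cells from 200 detected genes upward and up to 20% of mitochondrial counts, and they numbered 1480 in control 1, 1658 in control 2 and 2622 in the library labelled *Vdr* cKO. They held 18802408, 28690129 and 30954897 counts, with medians of 377, 502 and 688.5 detected genes per cell. *Vdr* was at 40.7, 35.9 and 80.8 CPM, so it was not lower in the library labelled *Vdr* cKO. The counts are per gene and do not show whether the floxed exon was present in these transcripts. Between 60 and 85 barcodes of each library also occurred in another library, of which 20 to 28 were among its cells.

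The summed share of ribosomal protein counts differed among all 3 libraries and was highest in the library labelled *Vdr* cKO. The share was 5.72% of all counts in control 1 (95% Poisson interval 5.71 to 5.73), 6.97% in control 2 (6.96 to 6.97) and 8.56% in the library labelled *Vdr* cKO (8.55 to 8.57). These intervals treat every count as independent and leave out differences between cells and mice. Whether reads were collapsed to molecules is not given in the sources used here, so the intervals can be too narrow even for counting error. The library labelled *Vdr* cKO was 1.35-fold above the mean of the controls (log2 0.43), 1.498-fold above control 1 and 1.23-fold above control 2. Control 2 was itself 1.22-fold above control 1 (log2 0.29), so the distance from the nearer control was about as large as the distance between the controls. Single cells overlapped widely, with medians of 6.62%, 7.62% and 9.90% and with 25th to 75th percentiles of 5.24 to 8.03%, 5.66 to 9.59% and 7.61 to 11.9%. Barcodes left out by the limits for cells had shares of 5.91%, 5.87% and 6.76%.

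The order of the libraries depended on how often each detected gene was counted. The mean count of a member in a cell where it was detected was 20.9, 25.9 and 17.8 in controls 1 and 2 and the library labelled *Vdr* cKO. The same mean over all genes was 22.8, 21.2 and 11.8, so a detected member had 0.914, 1.22 and 1.51 times the counts of an average detected gene. When every gene was counted once in each cell, members made up 6.25%, 5.69% and 5.67% of what was detected, and the log2 ratio of the library labelled *Vdr* cKO to the control mean turned to -0.08. In that measure a gene cannot exceed 1 per cell, and a median of 30, 43 and 57 members was detected per cell.

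Small and large subunit transcripts kept nearly the same balance in the 3 libraries. The small subunit made up 44.6%, 44.6% and 45.7% of the members' counts, the large subunit 46.0%, 45.9% and 45.8%, and the stalk 7.71%, 7.84% and 6.92%. The 13 paralogues, retrogenes and partners made up between 1.57% and 1.69%. The processed copies left out by the rule held 0.067%, 0.0462% and 0.0781% of all counts.

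To follow keratinocyte differentiation, the cells of all libraries were pooled and placed in 4 ranges. Cells were cut into terciles by *Lor* share. The lowest tercile was split at the median of *Krt14*/(*Krt14* + *Krt10*) into the *Krt14* range and the *Krt10* range, and the other terciles are called the middle *Lor* range and the *Lor* range. Shares within ranges were taken of the counts without these 3 genes. *Flg2*, a granular gene that set no range, was at 478, 208 and 291 CPM in the *Krt14* range and at 4336, 5318 and 2450 CPM in the *Lor* range. The split lay at only 1.22% *Krt14*, and the *Krt14* range still held *Krt10* at 14771 to 19587 CPM beside *Krt14* at 2708 to 3935 CPM, so its cells carried both keratins. It held 98, 138 and 721 cells, or 6.62%, 8.32% and 27.5% of the 3 libraries.

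The summed share was lower in the *Lor* range than in the *Krt14* range in 3 of 3 libraries. In the *Krt14* range it was 6.75% in control 1, 8.82% in control 2 and 10.4% in the library labelled *Vdr* cKO. In the *Krt10* range it was 6.18%, 7.94% and 8.42%, and in the middle *Lor* range 6.15%, 7.48% and 8.99%. In the *Lor* range it was 5.29%, 5.56% and 7.49%. The change from the *Krt14* to the *Lor* range was -0.35, -0.66 and -0.47 on the log2 scale, a ratio of 0.784, 0.631 and 0.720. The library labelled *Vdr* cKO thus lay between the controls in the size of the change and above both in the level of every range. Counted once per cell, the share changed by 0.20 and 0.12 in the controls and by -0.03 in the library labelled *Vdr* cKO, a measure in which each gene is limited to 1 per cell. As the mean of each cell's share, the changes were -0.11, -0.40 and -0.20, and with the 20 most abundant other genes and mitochondrial genes left out of the total they were -0.23, -0.54 and -0.44. With 3 libraries an exact paired test could not give a p-value below 0.25, and the direction alone is given.

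**Figure D1:**
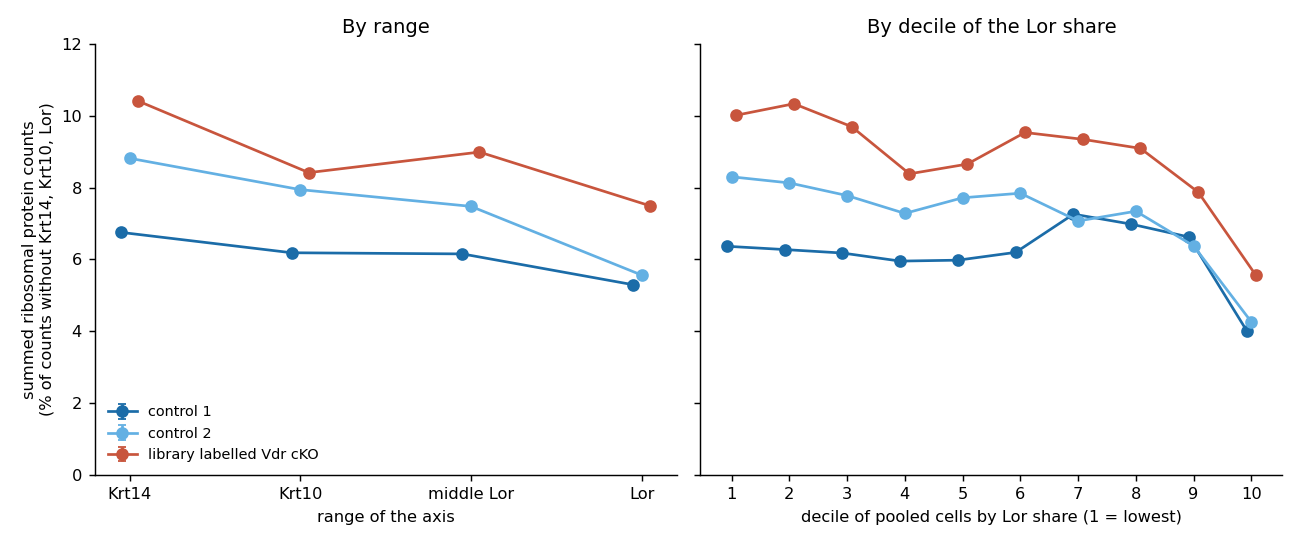
Summed ribosomal protein counts as a percentage of the counts without *Krt14*, *Krt10* and *Lor*, by range of the axis (left) and by decile of the pooled cells ordered by *Lor* share (right), in controls 1 and 2 and the library labelled *Vdr* cKO; bars are 95% Poisson intervals and are mostly smaller than the points. The library labelled *Vdr* cKO is the highest in every range and every decile, and all 3 libraries are lowest in decile 10.

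Along the deciles of the *Lor* share the decline was not even. In decile 1, the cells with the least *Lor*, the shares were 6.37%, 8.30% and 10.02% for controls 1 and 2 and the library labelled *Vdr* cKO. In decile 9 they were 6.62%, 6.38% and 7.87%, and in decile 10 they were 4.01%, 4.26% and 5.55%. Control 1 stayed between 5.95% and 7.26% over deciles 1 to 9, and its drop lay between the last 2 deciles. The controls were apart in deciles 1 to 6, where control 2 was the higher, and close from decile 7 on.

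Within the ranges the log2 ratio of the library labelled *Vdr* cKO to the control mean was 0.42 in the *Krt14* range, 0.25 in the *Krt10* range, 0.40 in the middle *Lor* range and 0.46 in the *Lor* range. Weighting the 4 ranges equally, it was 0.38, from counts without *Krt14*, *Krt10* and *Lor*. The 0.43 for all cells was from all counts, so these values are not on the same total. The *Krt14* range held a larger share of that library, and the part of this in the ratio was not tested. Control 1 against control 2 was -0.38, -0.36, -0.28 and -0.07 in the same order. In the *Lor* range, where the controls were closest, the library labelled *Vdr* cKO was 1.38-fold above their mean. Counted once per cell, its log2 ratios in the 4 ranges were -0.05, 0.09, -0.05 and -0.24.

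Markers of keratinocyte layers and of other cells differed between the libraries in both directions. In the *Krt14* range *Krt15*, a keratin of basal and bulge cells, was at 6045, 4397 and 11420 CPM and *Apoe* at 7346, 5958 and 13191 CPM in controls 1 and 2 and the library labelled *Vdr* cKO. *Tchh*, a protein of the inner root sheath, was at 0.295 CPM or less in that range of the controls and at 133 CPM in the library labelled *Vdr* cKO. In the *Krt10* range *Tchh* was higher still in that library, at 724 CPM, and at 0 in both controls. *Krt15* was at 2288, 1799 and 5198 CPM there and *Apoe* at 1124, 947 and 6424 CPM, in the same order of libraries. Over all cells the 7 basal keratinocyte markers summed to 4878, 3422 and 13271 CPM. The 6 dissociation stress genes summed to 1424, 1347 and 3368 CPM. The highest value lay in the library labelled *Vdr* cKO for 6 of 6 and 5 of 6 genes at 50 CPM. Of all genes at that level, 38.4% were highest there. The basal marker *Itga6*, at 27.2, 38.7 and 74.5 CPM, passed this level only through that library and so had to be highest in it. The spinous markers summed to 69422, 79681 and 52505 CPM, and 5 of 6 were lowest in that library. The granular markers summed to 20812, 20061 and 16578 CPM, and 8 of 8 were lowest in it, where 35.9% of all genes were. Cycling markers summed to 71.5, 54.3 and 212 CPM, inner root sheath markers to 0.585, 2.54 and 230 CPM, antigen-presenting cell markers to 139, 212 and 279 CPM, and red blood cell markers to 104, 463 and 62.5 CPM. The T cell, fibroblast and melanocyte markers did not exceed 42.2 CPM in any library. The part of these genes in the difference of the ribosomal share was not tested.

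Cells with at least 2 markers of another type were then set apart, by a limit chosen after seeing the data, with shares again of the counts without *Krt14*, *Krt10* and *Lor*. Without cells that held 2 of 4 cycling markers, which numbered 6, 16 and 129, the summed share was 6.001%, 7.31% and 8.89%. Without cells with 2 of 4 markers of antigen-presenting cells, which numbered 20, 37 and 68, it was 6.04%, 7.22% and 9.02%. In the library labelled *Vdr* cKO, 51 cells held 2 of 5 inner root sheath markers, and its share without them was 8.90%. The order of the libraries was the same without each of these groups. Each held at most 4.92% of the cells of a library, so leaving it out could hardly change the order. Within the cells set apart the order differed, at 8.38%, 6.54% and 9.02% for cycling markers. For markers of antigen-presenting cells it was 5.09%, 9.82% and 7.16%, with the library labelled *Vdr* cKO between the controls. By counts per cell, the share was 7.18%, 8.49% and 10.9% in the lowest tercile of each library, 7.35%, 8.81% and 10.3% in the middle tercile and 5.74%, 7.10% and 8.57% in the highest. It was lowest in the highest tercile of every library, and it was highest in the middle tercile of both controls and in the lowest tercile of the library labelled *Vdr* cKO.

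Among single members, the library labelled *Vdr* cKO was above both controls for 67 of the 84 genes at 50 CPM, where 38.4% of 3919 genes at that level were, and below both for 3, where 35.9% of genes were. None of the 84 was over 2-fold above both controls, where 3.88% of all genes were, and none over 2-fold below both, where 1.15% were. The median log2 ratio to the control mean was 0.47 over the 84 members, with 10th and 90th percentiles of 0.06 and 0.83, and 0.00 over all genes at that level, with percentiles of -0.58 and 0.69. Of the 84, 74 lay within 0.5 of the log2 ratio of the summed members. No share over all genes stands beside this count, and the members themselves make up the sum. Control 1 was below both other libraries for 68 of the 84, where 30.7% of genes were, and over 2-fold below both for *Rpl35a* and *Rps16*, where 0.74% of genes were. Against control 1 alone 13 members of the library labelled *Vdr* cKO were over 2-fold higher, where 6.4% of genes were, and against control 2 alone only *Rps10*, *Rps27rt* and *Rpl37rt*, where 7.3% were.

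The scaling of the libraries changed this count. With scaling factors from edgeR's TMM, the library labelled *Vdr* cKO was above both controls for 49 of 84 members and below both for 8, where 24.0% and 49.7% of genes were. With DESeq2's median of ratios the numbers were 48 and 9, where 22.2% and 52.0% were. These factors moved the median of all genes to -0.19 and -0.22 and that of the members to 0.29 and 0.26. A factor shifts all genes of a library alike, so the distance between these medians could hardly change.

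In the *Krt14* range the library labelled *Vdr* cKO was above both controls for 63 of 84 members, where 39.6% of genes were. The numbers were 48 in the *Krt10* range (34.9%), 64 in the middle *Lor* range (36.8%) and 73 in the *Lor* range (43.6%). The cells of a range still differed between libraries. In the *Lor* range, *Lor* was at 42202, 39958 and 29853 CPM in controls 1 and 2 and the library labelled *Vdr* cKO. *Krt14* was at 639, 573 and 1458 CPM there. In all 4 ranges together 44 of the 84 were above both controls, where 8.75% of genes were. These comprised 18 of 31 proteins of the small subunit, 24 of 42 of the large subunit, 1 of 3 of the stalk and 1 of 8 paralogues, retrogenes or partners.

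**Figure D2:**
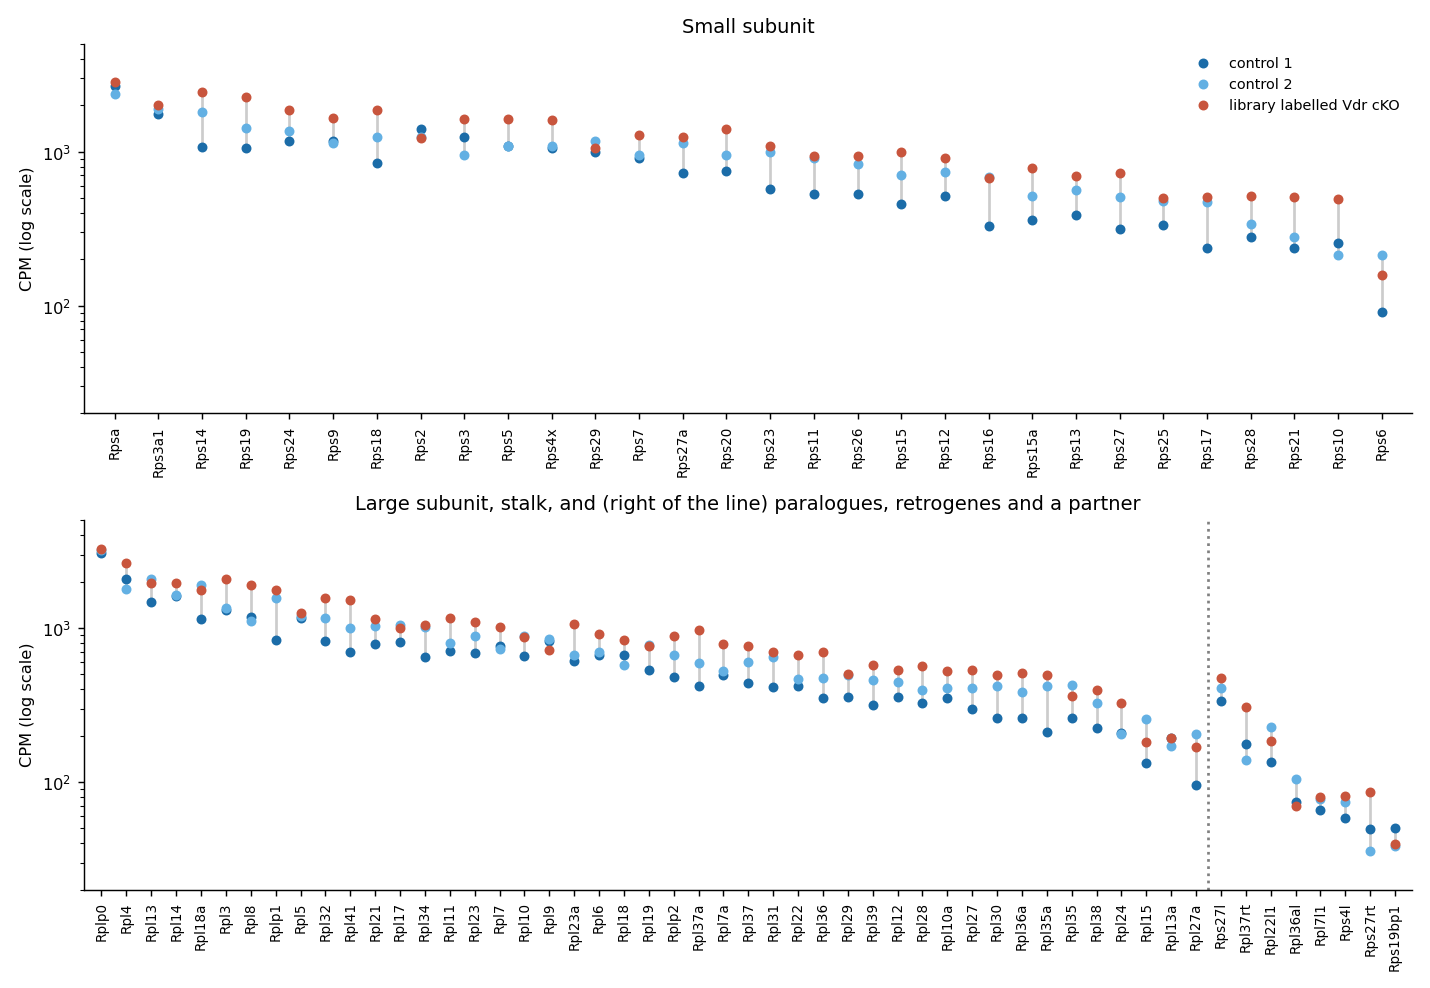
CPM on a log scale of 83 of the 84 members at 50 CPM in controls 1 and 2 and the library labelled *Vdr* cKO, 1 column per gene, with small subunit proteins above and large subunit, stalk and, right of the dotted line, paralogues, retrogenes and a partner below; grey lines join the 3 values. Scaled by library totals, the library labelled *Vdr* cKO is the highest point for 67 of the plotted genes and the lowest for 3.

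In the small subunit, 26 of 31 genes were above both controls, with a median log2 ratio of 0.53. *Rps10*, which sits on the head of the small subunit (chr17:27630418-27636669, minus strand), had the highest ratio of all members, at 256, 212 and 494 CPM in controls 1 and 2 and the library labelled *Vdr* cKO (log2 1.07). *Rps21*, another small subunit protein, was at 237, 280 and 510 CPM (log2 0.98). Both controls lay far below the library labelled *Vdr* cKO for these genes and close to each other.

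*Rps2*, which lines the path of the message into the ribosome, was the only small subunit gene below both controls, at 1398, 1238 and 1225 CPM (log2 -0.11). Its value in the library labelled *Vdr* cKO was close to control 2, and the controls differed more from each other. The processed copy *Rps2-ps10*, which can take reads of *Rps2*, was at 248, 102 and 288 CPM, highest in the library labelled *Vdr* cKO. How such reads were divided is not given in the sources used here, and the part of this in the place of *Rps2* was not tested. *Rps12* and *Rps28* came between, with log2 ratios of 0.55 and 0.74. *Rpsa*, which is also known as a laminin receptor, was at 2660, 2369 and 2848 CPM (log2 0.18), a narrow span in which the controls differed by as much.

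A few members were looked at for their known biology, after their values had been seen. *Rps19* and *Rps20*, in which mutations darken mouse skin through keratinocytes, were at 1054, 1433 and 2253 CPM and at 746, 947 and 1402 CPM, above both controls in each. *Rps6*, the substrate of the S6 kinases, was at 90.5, 213 and 157 CPM and so between the controls. Of *Rpl5* and *Rpl11*, which bind Mdm2 when ribosome assembly fails, *Rpl5* was at 1165, 1193 and 1252 CPM and *Rpl11* at 706, 802 and 1161 CPM. These members thus did not move by one ratio, with log2 values of 0.86, 0.73, 0.05, 0.09 and 0.62.

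In the large subunit, 33 of 42 genes were above both controls, with a median log2 ratio of 0.45. *Rpl37a*, a small zinc-binding protein, was the highest, at 418, 595 and 972 CPM (log2 0.94). *Rpl9* was the only gene of this class below both, at 823, 851 and 715 CPM (log2 -0.23), with the controls close together. *Rpl15* was at 133, 256 and 181 CPM (log2 -0.11), between controls that stood well apart (log2 of control 1 over control 2 -0.94). *Rpl13* and *Rpl17* were also between the controls, with ratios of 0.13 and 0.11.

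*Rpl26* was the only canonical member under the level of 50 CPM, at 21.9, 43.7 and 16.0 CPM, and lay below both controls (log2 -0.995). The other 5 under that level were the retrogenes and copies *Rpl6l*, *Rpl32l*, *Rps3a2*, *Rps3a3* and *Rps23rg1*, none of which passed 20 CPM. Counts of such genes share sequence with a canonical gene: the transcripts of *Rpl6* and *Rpl6l* were identical at 98.7% of aligned bases and those of *Rps3a1* and *Rps3a2* at 99.5%.

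The stalk, which recruits elongation factors to the large subunit, showed both patterns. The acidic proteins *Rplp1* and *Rplp2* were above both controls, at 843, 1557 and 1767 CPM (log2 0.56) and at 480, 673 and 888 CPM (log2 0.62). *Rplp0*, the base on which they sit, was at 3082, 3234 and 3274 CPM (log2 0.05), nearly level in all libraries.

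**Figure D3:**
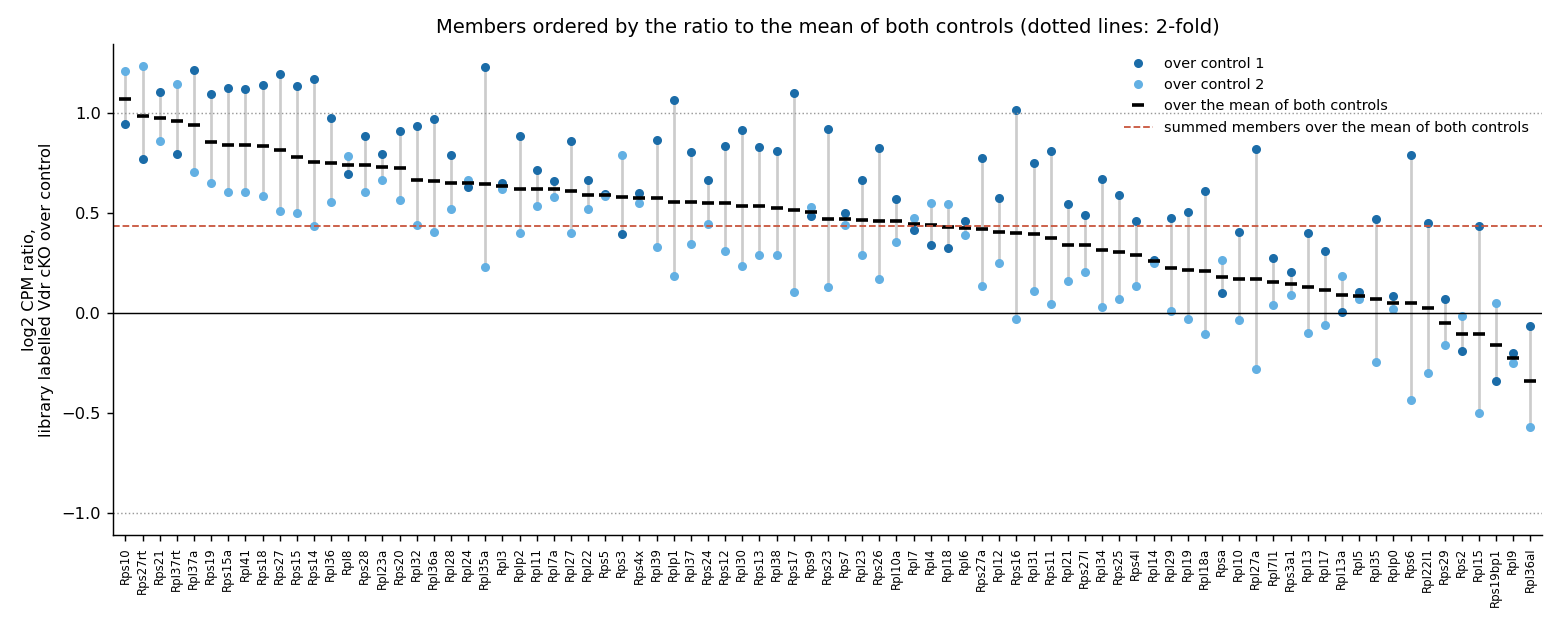
Log2 ratio of CPM (1 CPM added) in the library labelled *Vdr* cKO over control 1, over control 2 and over the mean of both (black bars) for 83 of the 84 members, ordered by the last; the dashed line is the log2 ratio of the summed members, 0.43, and dotted lines mark 2-fold. No member passes 2-fold against both controls, and *Rps10* and *Rpl36al* stand at the ends.

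Among the 8 paralogues, retrogenes and partners at 50 CPM, 5 were above both controls and the median log2 ratio was 0.22. The retrogenes *Rps27rt* and *Rpl37rt* were high, at 49.8, 35.9 and 85.8 CPM (log2 0.99) and at 177, 139 and 308 CPM (log2 0.96). *Rps27rt* reached 50 CPM in the library labelled *Vdr* cKO alone, so its place among the tested genes rests on that library. Their transcripts matched those of *Rps27* and *Rpl37* at 100% and 99.7% of 341 and 344 aligned bases, and reads from the aligned part of each pair can hardly be told apart. For *Rpl37* and *Rpl37rt* this part covers 344 of 835 and 682 transcript bases. *Rps27* was at 315, 506 and 722 CPM and *Rpl37* at 437, 601 and 764 CPM, and in both control 1 was the lower control, whereas it was the higher control for both retrogenes.

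*Rpl36al* is a retrogene of *Rpl36a* on chromosome 12 (69182731 to 69184083, minus strand) with 83.1% of aligned bases in common. It had the lowest ratio of the 84 members at 50 CPM, at 73.7, 105 and 70.4 CPM (log2 -0.34). *Rpl36a* was at 259, 383 and 508 CPM (log2 0.66). The paralogues *Rpl22l1*, *Rpl7l1*, *Rps27l* and *Rps4l* had ratios of 0.03, 0.15, 0.34 and 0.29, each below that of its relative, with *Rpl22* at 0.59, *Rpl7* at 0.45, *Rps27* at 0.81 and *Rps4x* at 0.58. *Rps19bp1*, which binds Rps19 and regulates Sirt1 and is not a ribosomal protein, was at 50.7, 38.5 and 39.9 CPM (log2 -0.16).

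Along the axis, 67 of the 84 members were lower in the *Lor* range than in the *Krt14* range in 3 of 3 libraries, where 28.1% of genes were, and 1 was higher in all, where 22.3% of genes were. None was over 2-fold lower in all 3, where 2.58% of genes were, and none over 2-fold higher, where 6.12% were. The median change was -0.32, -0.70 and -0.50 in controls 1 and 2 and the library labelled *Vdr* cKO, against 0.04, -0.20 and -0.11 over all genes. The lower level in 3 of 3 libraries was most frequent in the small subunit, with 27 of 31 genes, and in the large subunit, with 35 of 42, and held for 3 of 8 paralogues, retrogenes or partners.

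No member left the common trend by over 2-fold in the same direction in all 3 libraries. Over all genes, 10.9% were that far above the change of the summed members and 0.612% that far below. Of the 84 members, 66 stayed within 0.5 (log2) of the summed members in every library, a count with no share over all genes beside it. At any distance 18 lay above the summed members in 3 of 3 libraries, where 41.8% of genes did, and 20 below, where 10.3% did.

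**Figure D4:**
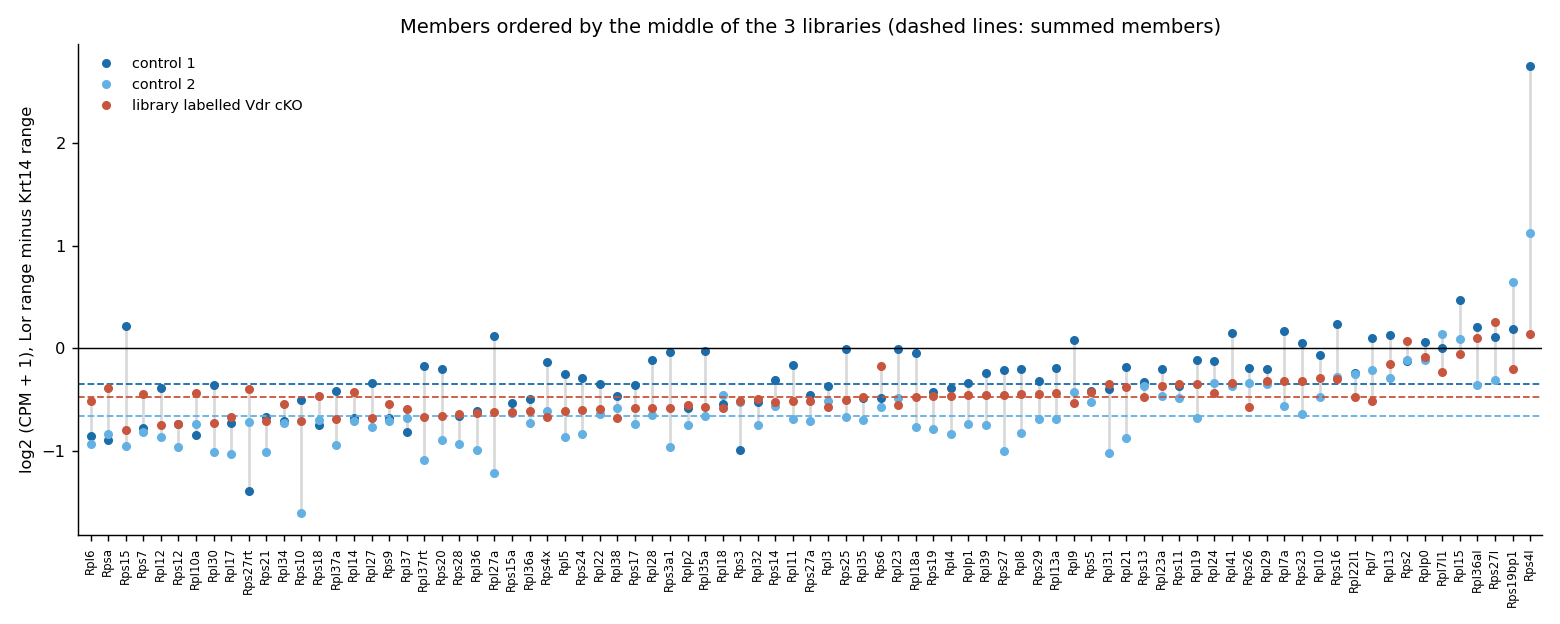
Change of log2(CPM + 1) from the *Krt14* range to the *Lor* range for 83 of the 84 members in controls 1 and 2 and the library labelled *Vdr* cKO, ordered by the middle of the 3 values; dashed lines give the summed members of each library, at -0.35, -0.66 and -0.47. Most members lie near these lines, and *Rps4l* stands above them in all 3 libraries.

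Of the 8 paralogues, retrogenes and partners at 50 CPM, 6 lay above the summed members in 3 of 3 libraries (*Rps4l*, *Rps27l*, *Rpl36al*, *Rpl7l1*, *Rpl22l1* and *Rps19bp1*), against 8 of 42 in the large subunit and 3 of 31 in the small subunit and 41.8% of all genes. *Rps4l*, annotated as a transcribed processed pseudogene (chr6:148354656-148355598, plus strand) and identical to *Rps4x* at 77.6% of aligned bases, was at 10.3, 22.3 and 74.1 CPM in the *Krt14* range and at 74.9, 49.9 and 81.8 CPM in the *Lor* range. It was the only member higher in the *Lor* range in all libraries, with log2 changes of 2.75, 1.13 and 0.14, and its *Krt14* range rested on 23 and 74 counts in the controls.

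*Rps27l*, a paralogue of *Rps27* known as a target of p53, was at 324, 440 and 444 CPM in the *Krt14* range and at 350, 356 and 530 CPM in the *Lor* range, for changes of 0.11, -0.31 and 0.26. *Rps27* itself changed by -0.22, -1.005 and -0.45, below its paralogue in each library. *Rpl36al* changed by 0.21, -0.36 and 0.09, and *Rpl36a* by -0.49, -0.73 and -0.62. *Rpl7l1* changed by 0.14 in control 2 and by -0.23 in the library labelled *Vdr* cKO, and was level in control 1.

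Among the canonical members, *Rpl15*, *Rplp0* and *Rpl13* were furthest above the trend. *Rpl15* was at 112, 259 and 203 CPM in the *Krt14* range and at 155, 276 and 194 CPM in the *Lor* range, which lay 0.82, 0.75 and 0.41 above the summed members. *Rplp0* was at 2752, 3066 and 3564 CPM and at 2870, 2831 and 3347 CPM, nearly level along the axis, and lay 0.41, 0.55 and 0.38 above them. *Rpl13* lay 0.48, 0.37 and 0.32 above. The other stalk proteins followed the trend, with *Rplp1* at 0.01, -0.08 and 0.02 from it and *Rplp2* at -0.23, -0.08 and -0.08. The place of *Rpl15* depended on the cells used. Its smallest distance was 0.10 with stricter limits for cells and 0.003 with all deposited barcodes. Without control 1 and without control 2 this distance was 0.46 and 0.43. Counted once per cell, *Rpl15* no longer lay on one side of the trend in all libraries. The smallest distance of *Rplp0* was 0.40 with stricter limits for cells, 0.14 with all deposited barcodes and 0.17 counted once per cell.

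Among the members furthest below the trend were *Rps12*, *Rps21*, *Rpl17* and *Rps28*. *Rps12* was at 639, 1034 and 1168 CPM in the *Krt14* range and at 381, 530 and 697 CPM in the *Lor* range, for changes of -0.74, -0.96 and -0.74. *Rps21* changed by -0.67, -1.01 and -0.71, and *Rpl17* by -0.73, -1.03 and -0.68. These members fell short of 2-fold in at least 2 libraries and lay between -0.39 and -0.17 from the summed members. With all deposited barcodes *Rps21* no longer lay on one side of the trend in all libraries. *Rpsa* changed by -0.89 and -0.84 in the controls and by -0.39 in the library labelled *Vdr* cKO, where it was on the trend.

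Transcript length went with the ratio between libraries. The 43 members with a GENCODE transcript up to the median of 751 bases had a median log2 ratio of 0.57 to the control mean, and the 41 longer ones 0.34. Spearman's rho between length and this ratio was -0.42 over 84 members and -0.14 over the 3879 genes of any kind with a length, described across genes that share libraries. Between control 1 and control 2 the short members had a median of -0.51 and the long ones -0.24, so that the shorter members also separated the controls more. The part of length in the results was not tested.

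A TOP run at the annotated start went with a somewhat higher ratio between libraries and with little along the axis outside control 1. The 14 at 50 CPM had a median log2 ratio of 0.65 to the control mean, and the 49 without a run 0.46. Along the axis their medians were -0.50, -0.70 and -0.52 with a run, and -0.20, -0.68 and -0.50 without, in controls 1 and 2 and the library labelled *Vdr* cKO. Genes without a run at the annotated start can still have one at the used start. They also include *Rpl22l1*, *Rpl36al*, *Rpl37rt*, *Rpl7l1*, *Rps27l* and *Rps19bp1*, from a class with a median ratio of 0.22. Of that class at 50 CPM only *Rps27rt* had a run, and *Rps4l* had no RefSeq start listed. The part of class in this difference was not tested.

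Other genes of the translation machinery were compared by lists. A list of 16 translation factors and other genes such as *Npm1* was taken as having TOP transcripts, and their starts were not examined separately here. Of these, 15 were above both controls, where 38.4% of all genes were. In the *Lor* range 8 were lower in 3 of 3 libraries, where 28.1% were. Their counts summed to 9229, 8824 and 11952 CPM, with a median log2 ratio of 0.46. *Eef1a1*, which brings aminoacyl-tRNA to the ribosome, was at 2249, 2158 and 3197 CPM and *Eef2*, which moves the ribosome along the message, at 1323, 1085 and 1694 CPM. The controls were in the opposite order to that of the summed ribosomal proteins for these 2 genes.

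Of the ribosomal components whose symbols the rule does not take, *Fau* and *Rack1* were above both controls, at 445, 620 and 766 CPM and at 763, 794 and 1072 CPM. Of 28 ribosome biogenesis genes, 18 were at 50 CPM, of which 11 were above both controls, where 38.4% of all genes were, and 3 below, where 35.9% were, with a median log2 ratio of 0.22. Nucleolin (*Ncl*) was at 826, 682 and 884 CPM, and along the axis it changed by -1.57, -1.30 and -0.91. Of 82 mitochondrial ribosomal protein genes, 41 were at 50 CPM, of which 20 were above both controls and 5 below, with a median log2 ratio of 0.20. These counts stand beside 38.4% of all genes above both controls and 35.9% below. A gene of either list that reached 50 CPM only in the library labelled *Vdr* cKO had to be above both controls. Among the biogenesis genes this held for *Polr1c* (23.8, 24.5 and 60.2 CPM), *Gnl3* (48.1, 46.2 and 62.8 CPM) and *Myc* (37.5, 29.8 and 65.0 CPM).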

How the data were processed

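Cells of P18 mouse dorsal skin were released with trypsin, captured on a Nadia droplet system (RNAdia 2.0), and sequenced as 3 libraries. The authors deposited raw counts for each gene symbol and cell barcode. The submitters' notes name mm10, and the study names Seurat. The aligner, the annotation and whether reads were collapsed to molecules are not given in the sources used here. CPM is the summed count of a gene in a library or range relative to the total, and ratios used log2(CPM + 1). Genes at 50 CPM in at least 1 library were compared. A call was over 2-fold from both controls, or over 1 (log2) from the summed members along the axis in 3 of 3 libraries. Intervals are exact 95% Poisson intervals, which treat every count as independent. The members named are *Rpsa* and the stalk, the 5 highest and 5 lowest by ratio, the 5 furthest above and below the axis trend, and paralogues or retrogenes with an ending of l, l1 or rt. Other members with a shared number are given by counts. The members, lists and tests were chosen with earlier results of these data known. Doublets were not called and were left in. Positions are from GENCODE M21 and starts from RefSeq (GRCm38.p6). The software was R 4.3.3, Biopython 1.88, Python 3.11.15, pandas 2.3.3, scipy 1.17.1, numpy 2.4.6, matplotlib 3.10.9, edgeR 4.0.16 and DESeq2 1.42.0, the last 2 for scaling factors alone. The 2-fold call between libraries was tested on simulated counts with planted changes larger than its limit. These counts had equal means in both controls and Poisson noise alone, so the test says little about real differences between libraries. The call along the axis was not simulated. The values of 1 member and of 1 other ribosomal gene are not reported here, and they stay in the counts and sums.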

Additional observations from a re-analysis of the deposited data

Results flagged for a closer look

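Along the axis, 3 of the 23 named members moved one way in both controls and the other way in the library labelled *Vdr* cKO. The difference was not tested, since 1 library stands on one side. Many of the named members were picked as extremes of these data, and no share over all genes stands beside this count. *Rpl15* changed by 0.47 and 0.09 on the log2 scale in the controls and by -0.0603 in the library labelled *Vdr* cKO, *Rps19bp1* by 0.19 and 0.65 against -0.20, and *Rps2* by -0.13 and -0.12 against 0.0657. The changes of *Rps2* are small beside those of the summed members, and *Rps19bp1* rested on 86 and 59 counts in the *Krt14* range of the controls.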

How the results depend on the processing

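No paired analysis was possible because the controls carry numbers 1 and 2 and the library labelled *Vdr* cKO only 1. The log2 ratio of the summed share to the control mean, 0.43, ranged from 0.30 to 0.58 when a control was left out and was 0.22 with DESeq2 factors. It turned to -0.0752 when each gene was counted once per cell, a measure that limits every gene to 1 per cell. The change of the summed share along the axis, -0.35, -0.66 and -0.47 in controls 1 and 2 and the library labelled *Vdr* cKO, then became 0.20, 0.12 and -0.0262, so that it turned in both controls. Taking the mean of each cell's share gave -0.11, -0.40 and -0.20. The cause of these shifts was not tested. Leaving out each control in turn gave changes of -0.13 in control 1, -0.67 in control 2 and -0.52 to -0.51 in the library labelled *Vdr* cKO. The number of members over 2-fold from the controls, 0 with both, was 3 without control 1 and 13 without control 2. It was 0 under every other alternative run, as was the number leaving the trend along the axis under every alternative run. Without the barcodes shared between libraries, an alternative chosen after seeing the data, the values were 0.44 for the ratio and -0.36, -0.68 and -0.46 along the axis. For the 23 named members, 268 of 299 ratios and 285 of 322 distances from the axis trend were counted as keeping their sign under an alternative, and 33 and 65 moved by more than the spread of the controls. *Rpl37rt*, *Rpl9*, *Rplp1*, *Rps27rt* and *Rpsa* did not lie on one side of the trend in all libraries, so their distances had no sign to keep. Part of the 285 comes from these members. Depth limits *Rps4l* and *Rps19bp1* most, with under 100 counts in the *Krt14* range of each control.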

Other observations

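Processed copies of ribosomal protein genes, which the member rule leaves out, did not follow the order of the controls seen for the members. Of 150 such symbols, 4 reached 50 CPM. *Rps2-ps10* was at 248, 102 and 288 CPM in controls 1 and 2 and the library labelled *Vdr* cKO, *Rpl10-ps3* at 167, 83.8 and 162 CPM, *Rpl9-ps6* at 80.7, 43.1 and 61.3 CPM and *Rps26-ps1* at 43.9, 26.9 and 60.9 CPM. Control 2 was the lowest library for all 4, whereas control 1 was the lowest for 68 of the 84 members. Together the 150 copies held 670 CPM in control 1, 462 in control 2 and 781 in the library labelled *Vdr* cKO. These symbols can take reads of their parent genes, and how the authors' counting divided such reads is not given in the sources used here.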
